A study of Mus musculus with 12 samples.

Results

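The ERG transgene alone was compared with wild type in whole prostate RNA. The comparison used 6 of the 12 libraries of the series, the 3 labelled WT and the 3 labelled Pb-ERG, all from C57BL/6 mice that were 15 months old. In Pb-ERG mice the probasin promoter, written Pb, drives an ERG transgene modelled on the human TMPRSS2-ERG fusion in prostate epithelium, and the *Trp53* alleles are intact. The WT mice were described as littermate controls and carry neither the transgene nor a *Trp53* deletion. The members were the 41042 genes of the deposited tables, of which 25296 had a fragment in these libraries and 16554 passed the filter on low values described under processing and were tested. The other 6 libraries, labelled Trp53pc-/- and "Pb-ERG, Trp53pc-/-", carry a prostate deletion of *Trp53* and were used to look up the genes that changed. The libraries are from bulk tissue, so that fewer cells of a type and less RNA per cell cannot be told apart.

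ERG is a transcription factor of the ETS family, whose members bind DNA around a GGAA core. It is normally made in endothelial and blood-forming cells, and in a large share of human prostate cancers a fusion puts it under the androgen-regulated *TMPRSS2* promoter. Luminal cells of the mouse prostate secrete proteins into the gland at very high rates. The genes for these products differ between prostate lobes and depend on androgen, and the seminal vesicle, which lies against the prostate, makes a related set of secreted proteins.

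Levels are given as scaled FPKM, the deposited fragment values per exon length and depth (FPKM) rescaled so that the median gene matches between libraries, and 3 values in a row are mice 1, 2 and 3 of the group by the number in the label. Differences are log2, Pb-ERG minus WT, ± SE, from limma. The 6 libraries held 20591189 to 32565774 fragments. The mice within WT differed from each other by a root mean square of 0.605 to 0.704 on the log2 scale. Pb-ERG mice 2 and 3 differed by 0.559, and mouse 1 differed from these by 1.05 and 0.969, so mouse 1 stood apart. The summed level of 8 seminal vesicle markers was 15970, 605 and 27140 in WT and 52670, 132 and 68.9 in Pb-ERG mice. The summed level of 10 immediate early genes, which rise within minutes of a stimulus, was 45.8, 47 and 45 in WT and 719.6, 87.9 and 86.1 in Pb-ERG mice. Mouse 1 was the highest of the 6 in both sums. The part these tissues and genes play in the results was not tested, and the main counts are given below with and without mouse 1. The luminal markers that define the tissue were present in each library, among them the keratin gene *Krt18*, at 372, 337 and 379 in WT and 308, 302 and 285 in Pb-ERG mice.

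The targeted gene was read first. *Erg* was at 0.569, 1.05 and 0.531 in WT and 16.7, 10.02 and 18.3 in Pb-ERG mice. Every Pb-ERG mouse lay above every WT mouse (log2 difference 4.35 ± 0.34, adjusted p = 0.00448; two-sided exact permutation p = 0.1, the smallest that 3 mice against 3 allow). The tables hold a single *Erg* entry, and how reads of the transgene were counted in it is not given in the sources used here. *Trp53*, intact in both groups, was at 12.1, 10.1 and 10.4 in WT and 14.2, 18.4 and 16.6 in Pb-ERG mice (adjusted p = 0.0783). Of 22 ETS family genes, 21 were tested and 2 rose (7 higher and 3 lower without Pb-ERG mouse 1), *Erg* and *Elf3*, an epithelial member, at 7.69, 6.38 and 6.82 in WT and 13.3, 18.3 and 19.9 in Pb-ERG mice (log2 difference 1.28 ± 0.19, adjusted p = 0.0205). *Ehf*, the most abundant of the family in WT, was at 306, 229.7 and 312 in WT and 199, 86.7 and 88.3 in Pb-ERG mice and did not pass (adjusted p = 0.0901).

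At an adjusted p under 0.05, 507 genes were higher in Pb-ERG (3.06% of those tested) and 216 were lower (1.30%), or 4.37% in either direction. For 5162 genes (31.2%) the ranges of the groups did not overlap. The falls were smaller: the median difference was 1.91 for the genes called higher and -1.31 for those called lower. The counts moved with each mouse. Without Pb-ERG mouse 1 they were 2379 higher (14.4% of those tested) and 1893 lower (11.4%), which are the shares to set beside the list counts without mouse 1 below. These lists held 507 of the 507 and 216 of the 216 genes. Without Pb-ERG mouse 2 they were 74 and 25, and without mouse 3 they were 73 and 28. Leaving out WT mouse 1, 2 or 3 gave 80, 47 and 68 higher and 24, 9 and 20 lower. Each of the 507 and 216 genes kept its direction in these 6 fits, which follows from groups that overlapped in none of them. In each fit 39 higher and 7 lower genes stayed past the threshold. The balance of rises and falls moved with the scaling and with the mice. With FPKM as deposited, 846 genes were higher and 120 lower (87.6% higher, against 70.1% here, 55.7% without Pb-ERG mouse 1 and 83.9% without WT mouse 2), and the median of all genes moved from -0.01 to 0.31. The 11 genes above 1% of a library took 27.3, 28.7 and 29.5% of the WT and 23.3, 8.1 and 6.09% of the Pb-ERG fragments.

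**Figure D1:**
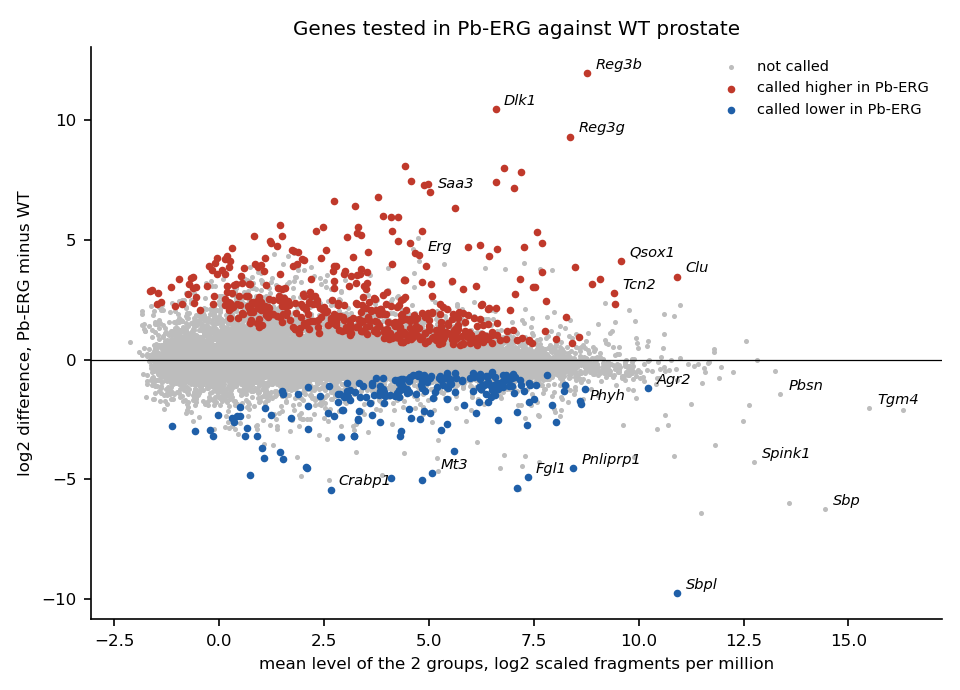
Each of the 16554 genes tested is a point, with its mean level as log2 scaled CPM of fragments on the x axis and its log2 difference, Pb-ERG minus WT, on the y axis; colours mark the 507 genes called higher and the 216 called lower. *Sbpl* is the lowest point at -9.74 and *Reg3b* the highest at 11.95, a value that depends on the pseudocount, while the most abundant secretory genes on the right, such as *Tgm4* and *Sbp*, are not called.

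The secretory products of the gland held the deepest fall. Of 20 listed, all tested, 2 were called lower and 0 higher, and without mouse 1 the counts were 6 and 3. Their median difference was -1.73, against -0.01 over all genes tested. *Sbpl*, a homologue of the spermine-binding protein gene *Sbp*, was at 1077, 5443 and 6782 in WT and 23.1, 4.64 and 0.462 in Pb-ERG mice. Its lowest WT value lay far above the highest Pb-ERG value (log2 difference -9.74 ± 1.32, adjusted p = 0.0171). *Sbp*, its neighbour on chromosome 17 and one of the most abundant transcripts of the WT gland, was at 11771, 59858 and 38656 in WT and 132, 3537 and 133 in Pb-ERG mice. The groups did not overlap, but the spread in Pb-ERG was wide and the difference of -6.25 ± 1.35 did not pass (adjusted p = 0.0515). As the pair is related in sequence, reads may be split between them. *Pnliprp1*, a pancreatic lipase relative, was at 551, 311 and 339 in WT and 46.1, 31.3 and 3.21 in Pb-ERG mice (log2 difference -4.53 ± 0.92, adjusted p = 0.0451), again with no overlap.

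The start regions of *Sbp* and *Sbpl* are shown because the pair lies side by side and was below WT in all 3 Pb-ERG mice. Each window runs from 250 bases before to 50 bases after a RefSeq start, 5′ to 3′ on the gene's strand. Capitals mark TATAAA on that strand and the ETS-type letters AGGAAG or CGGAAG on either strand; the letters of these motifs do not overlap here.
Sbp (GRCm38.p6, chr17:23941428-23941727, plus strand): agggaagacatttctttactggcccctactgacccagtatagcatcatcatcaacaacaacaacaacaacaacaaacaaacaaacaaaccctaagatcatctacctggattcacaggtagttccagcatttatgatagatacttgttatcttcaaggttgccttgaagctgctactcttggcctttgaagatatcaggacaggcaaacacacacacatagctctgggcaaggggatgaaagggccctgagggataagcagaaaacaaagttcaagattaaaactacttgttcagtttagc
Sbpl (GRCm38.p6, chr17:23955224-23955523, minus strand): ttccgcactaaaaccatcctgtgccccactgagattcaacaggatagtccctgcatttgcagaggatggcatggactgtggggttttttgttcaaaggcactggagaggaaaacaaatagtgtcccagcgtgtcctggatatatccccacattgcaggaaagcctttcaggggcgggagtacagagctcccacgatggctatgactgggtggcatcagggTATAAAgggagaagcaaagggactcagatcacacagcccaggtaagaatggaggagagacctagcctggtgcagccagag
TATAAA stood 30 bases before the *Sbpl* start and was not in the *Sbp* window, and neither window held AGGAAG or CGGAAG. The listed start of *Sbpl* in the deposited tables lay 354 bases from this RefSeq start, and that of *Sbp* 6 bases. TATAAA was in 4.76% of the 11565 windows matched to tested genes, in 7.93% of the 164 of genes called lower and in 5.75% of the 348 of genes called higher. AGGAAG was in 33.3% of all, 32.3% of lower and 35.6% of higher windows. CGGAAG was in 29.5%, 26.8% and 18.1%. These are counts of letters and not of bound sites.

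The other abundant secretory genes were not called, and their values differed widely between the Pb-ERG mice. *Spink1*, a trypsin inhibitor of seminal fluid, was at 11586, 39036 and 30516 in WT and 113, 14846 and 1159.9 in Pb-ERG mice, with mouse 2 inside the WT range (adjusted p = 0.16). *9530002B09Rik* was at 5973, 18812 and 8877 in WT and 407, 6854 and 1745 in Pb-ERG mice, again with mouse 2 nearest WT. *Pbsn*, the probasin gene, was at 18077, 22778 and 11187 in WT and 6902, 5673 and 6048 in Pb-ERG mice. It was lower in each of the 3 mice, by 1.43 on the log2 scale on average, and did not pass (adjusted p = 0.206). *Gsdma*, a gasdermin, was at 487, 400.3 and 539 in WT and 215, 34.3 and 49.1 in Pb-ERG mice, below WT in each mouse (adjusted p = 0.0594). Not every product was low. *Msmb*, which encodes a microseminoprotein, was at 6412, 6191 and 3555 in WT and 4701, 9227 and 7801 in Pb-ERG mice, and the defensin *Defb50* was at 12838, 12548 and 10152 in WT and 24983, 17599 and 18541 in Pb-ERG mice. For both, the Pb-ERG mean was above the WT mean and neither passed (adjusted p = 0.575 and 0.327). *Spink5*, another protease inhibitor, was at 63.9, 62.7 and 261 in WT and 119.6, 1119 and 906 in Pb-ERG mice (adjusted p = 0.19).

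The 15 largest falls include genes of secreted proteins, enzymes and receptors. *Fgl1*, which encodes a fibrinogen-like secreted protein, was at 328, 282 and 230.1 in WT and 21.2, 5.38 and 6.75 in Pb-ERG mice (log2 difference -4.90 ± 0.48, adjusted p = 0.0069). *Lct*, the lactase gene, was at 8.1, 4.9 and 3.13 in WT and 0.264, 0.102 and 0.118 in Pb-ERG mice (log2 difference -4.93 ± 0.46, adjusted p = 0.006). *Spink11* was at 9.98, 5.11 and 5.57 in WT and 0.306, 0.133 and 0.686 in Pb-ERG mice, *Habp2*, a plasma serine protease gene, at 5.14, 2.56 and 5.75 in WT and 0.706, 0.261 and 0.384 in Pb-ERG mice, and *Cckar*, a cholecystokinin receptor gene, at 3.82, 0.735 and 1.14 in WT and 0.1001, 0.0226 and 0.0499 in Pb-ERG mice. All 5 were picked among genes whose groups do not overlap. *Bglap3*, a member of the osteocalcin family whose near-identical copies may share reads, was at 132, 115 and 96 in WT and 15.3, 1.52 and 0.849 in Pb-ERG mice. The brain-type metallothionein gene *Mt3* was at 88.1, 124 and 138 in WT and 23.7, 2.28 and 1.15 in Pb-ERG mice (log2 difference -4.74 ± 0.97, adjusted p = 0.0459). In both, mice 2 and 3 were far below mouse 1, which was itself below each WT mouse. The retinoic acid-binding protein gene *Crabp1* was at 6.1, 20.2 and 19.9 in WT and 0, 0.454 and 0.319 in Pb-ERG mice, listed at 0 in mouse 1. *Tff3*, a trefoil peptide gene reported as raised with ERG in human prostate cancer, was at 11.3, 21.6 and 16.3 in WT and 0.727, 1.28 and 0.0741 in Pb-ERG mice (log2 difference -4.47 ± 0.63, adjusted p = 0.0186). The rest of the 15 were *Gm16063*, *BC007180*, *Tmem45b* and *Cyp2b10*, with differences of -5.04, -4.53, -3.80 and -3.20. *Gm16063* overlaps another listed gene, *Tbx3os1*, and the libraries do not separate strands.

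Falls among other abundant genes were smaller than these. The following were chosen after their values were seen, from the called genes with no overlap and the highest WT means. *Agr2*, a protein disulfide isomerase of secretory cells, was at 2134, 2527 and 1712 in WT and 1002, 923 and 864 in Pb-ERG mice (log2 difference -1.18 ± 0.23, adjusted p = 0.0426). Its 3 Pb-ERG values lay closer together than its WT values. The ER prolyl isomerase gene *Fkbp11* was at 276, 256 and 237 in WT and 148, 69.5 and 91.4 in Pb-ERG mice (log2 difference -1.38 ± 0.26, adjusted p = 0.0405), and *Srp14*, a subunit of the signal recognition particle, was at 154, 219 and 142 in WT and 104, 69.97 and 70.8 in Pb-ERG mice (log2 difference -1.07 ± 0.23, adjusted p = 0.0494). For these 3 genes of the secretory pathway the separation of the groups follows from how they were chosen. *Rnf149*, a membrane ubiquitin ligase gene, was at 291, 216 and 202 in WT and 105, 69.5 and 47.8 in Pb-ERG mice (log2 difference -1.73 ± 0.30, adjusted p = 0.0317). *Car2*, a carbonic anhydrase gene, was at 214, 124 and 131 in WT and 29.1, 34.6 and 11.7 in Pb-ERG mice (log2 difference -2.73 ± 0.42, adjusted p = 0.0237). *Tmem123* was at 171, 134 and 123 in WT and 67.5, 63.4 and 69.96 in Pb-ERG mice (log2 difference -1.08 ± 0.16, adjusted p = 0.0228). The plot by mouse shows the 15 most abundant falls beside the 15 most abundant rises.

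**Figure D2:**
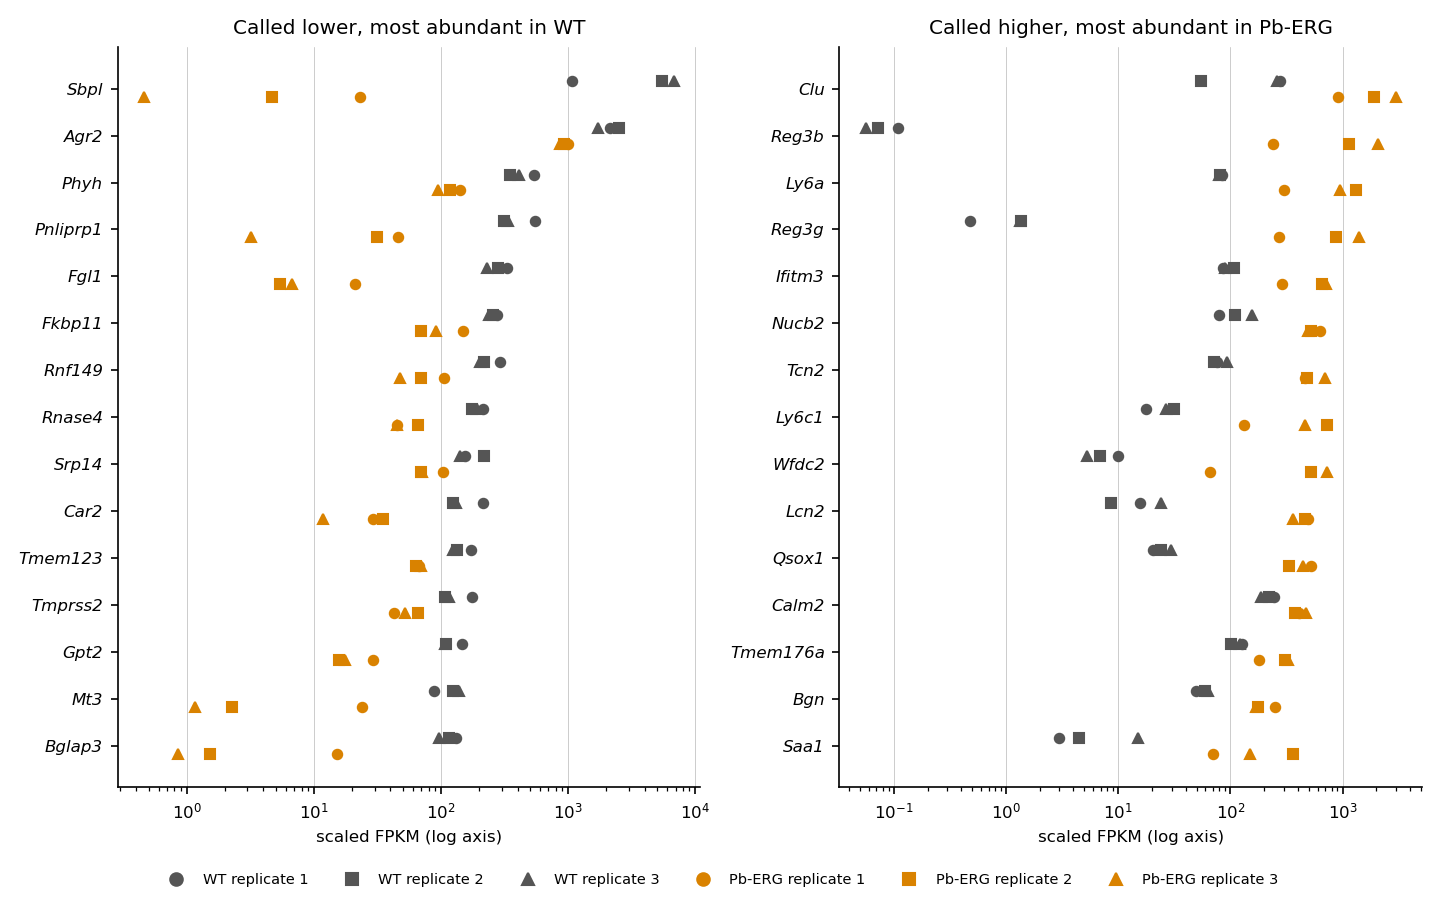
Scaled FPKM on a log x axis for each of the 6 mice, for the 15 called falls with the highest WT mean (left) and the 15 called rises with the highest Pb-ERG mean (right); symbols mark the mouse number and colours the group. No gene shown has overlapping groups; *Sbpl*, *Mt3* and *Bglap3* spread widely among the Pb-ERG mice, while *Agr2*, *Tmem123* and *Tcn2* do not.

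Genes of ER translocation, folding and vesicle traffic had mostly negative differences. The 2 lists were chosen with earlier results of these data known, and no gene of them passed with all 3 Pb-ERG mice in the fit. Of 24 folding and unfolded protein response genes, 0 were called in either direction and 21 had a negative difference, against 51.1% of all genes tested, with a median of -0.52. By mouse the median was 0.32, -0.99 and -0.78, so mouse 1 was above WT and mice 2 and 3 below. Without mouse 1, 11 of the 24 were called lower and 0 higher. *Hspa5*, the main ER chaperone gene, was at 1351, 1976 and 2781 in WT and 3362, 733 and 1004 in Pb-ERG mice, and *Pdia6*, a disulfide isomerase gene, at 1820.5, 1458 and 2001 in WT and 1253, 687 and 835 in Pb-ERG mice. Of 33 genes of translocation, glycosylation and vesicle traffic, 0 were called, 29 had a negative difference and the median was -0.32; without mouse 1, 8 were lower and 3 higher. *Ssr4*, a translocon-associated subunit gene, and *Tmed3*, a cargo receptor gene, had differences of -0.56 and -0.10. With FPKM as deposited, which shifts the median of all genes to 0.31, the folding median was -0.19.

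Several falls seen at like size in all 3 mice were genes of metabolism. *Gpt2*, the mitochondrial alanine aminotransferase gene, was at 147, 109.8 and 108 in WT and 29, 15.6 and 17.5 in Pb-ERG mice (log2 difference -2.59 ± 0.26, adjusted p = 0.00693). *Phyh*, which starts the peroxisomal breakdown of phytanic acid, was at 539.8, 347 and 413 in WT and 142, 117 and 94.8 in Pb-ERG mice (log2 difference -1.87 ± 0.22, adjusted p = 0.0123). *Adhfe1*, a mitochondrial hydroxyacid dehydrogenase gene, was at 21.4, 14.4 and 14.4 in WT and 3.18, 3.33 and 3.91 in Pb-ERG mice (log2 difference -2.24 ± 0.20, adjusted p = 0.00506). None of the 3 overlapped between groups, as held for each of the 216 genes called lower. *Adhfe1* differed little among the Pb-ERG mice. Of 19 citric acid cycle genes 1 was lower, the fumarase gene *Fh1*, at 48.7, 57.6 and 48.4 in WT and 29.7, 21 and 22.1 in Pb-ERG mice (log2 difference -1.10 ± 0.17, adjusted p = 0.0232), and 0 were higher; without mouse 1, 5 were lower. The median of that list was -0.20, and it turned positive with FPKM as deposited (0.127). Of 20 genes of amino acid response and synthesis 1 was lower and 0 higher (1 higher and 10 lower without mouse 1). *Phgdh*, the entry enzyme of serine synthesis, was at 69.5, 73.8 and 79.4 in WT and 48.2, 30.7 and 43.9 in Pb-ERG mice (log2 difference -0.88 ± 0.19, adjusted p = 0.0477). *Sms*, the spermine synthase gene, was at 5.07, 5.5 and 4.7 in WT and 2.07, 1.83 and 1.6 in Pb-ERG mice (log2 difference -1.46 ± 0.17, adjusted p = 0.0115), whereas *Smox*, the spermine oxidase gene, was at 3.6, 3.06 and 3.26 in WT and 5.71, 6.001 and 9.13 in Pb-ERG mice and was called higher (log2 difference 1.03 ± 0.21, adjusted p = 0.0466). The pseudogene *Sms-ps* is listed as well, and reads may be shared between it and *Sms*. A list of 19 genes of branched-chain amino acid breakdown was written after the values were seen. Of these 4 were lower, 0 higher and 18 had a negative difference, with a median of -0.60; without mouse 1, 13 were lower. *Dbt*, the core subunit of the branched-chain ketoacid dehydrogenase, was at 33.7, 34.2 and 40.8 in WT and 18.1, 11.9 and 10.7 in Pb-ERG mice (log2 difference -1.45 ± 0.21, adjusted p = 0.0204). *Ivd*, *Pcca* and *Auh*, enzymes further along these routes, had differences of -0.60, -0.87 and -0.75.

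Of 20 genes of cholesterol synthesis, 2 were lower and 1 higher. The squalene epoxidase gene *Sqle* was called lower, at 11.7, 8.87 and 12.1 in WT and 6.92, 5.35 and 5.34 in Pb-ERG mice (log2 difference -0.88 ± 0.18, adjusted p = 0.0468). *Nsdhl*, a sterol dehydrogenase gene, was also lower, at 14.7, 11.4 and 14.2 in WT and 6.99, 7.88 and 7.67 in Pb-ERG mice (log2 difference -0.83 ± 0.15, adjusted p = 0.036). Over the 20 genes of the list the median difference was -0.28, and without mouse 1 the counts were 2 higher and 7 lower. Glycolysis went the other way, with 2 of 15 higher, 0 lower and a median of 0.50. The hexokinase gene *Hk1* was at 11.5, 9.84 and 13.3 in WT and 18.9, 29.6 and 28.6 in Pb-ERG mice (log2 difference 1.14 ± 0.21, adjusted p = 0.0364) and *Gapdh* at 16.5, 12.7 and 15.4 in WT and 28.4, 83.4 and 49.9 in Pb-ERG mice (log2 difference 1.72 ± 0.36, adjusted p = 0.0479). Without mouse 1, 10 of the 15 were called higher.

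Genes known to respond to androgen moved both ways. Of 20 tested, 2 were lower and 2 higher, and the median was -0.23, or 0.094 with FPKM as deposited. *Tmprss2*, the androgen-driven protease gene that lends its promoter to the human fusion, was at 177, 108 and 116 in WT and 42.7, 66.4 and 51.9 in Pb-ERG mice (log2 difference -1.30 ± 0.25, adjusted p = 0.0395). *Abcc4*, an efflux pump gene, was at 9.95, 9.67 and 14.7 in WT and 4.05, 4.1 and 2.81 in Pb-ERG mice (log2 difference -1.63 ± 0.22, adjusted p = 0.0174). Both were lower in each Pb-ERG mouse than in any WT mouse, as was each of the 216 genes called lower. Without mouse 1 the list held 5 higher and 5 lower. *Steap4*, a metalloreductase gene, was at 6.44, 8.58 and 6.88 in WT and 15.8, 54.9 and 54.4 in Pb-ERG mice (log2 difference 2.31 ± 0.47, adjusted p = 0.0449). Of 12 luminal markers 1 was lower, *Tmprss2*, and 0 higher; without mouse 1, 1 higher and 4 lower. *Hoxb13*, *Foxa1*, *Krt8* and *Epcam* had differences of 0.09, -0.20, 0.26 and -0.29, none past the threshold.

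The 7 falls that passed whichever mouse was left out were *Adhfe1*, *Ang*, *G6pc2*, *Gsto1*, *Ly75*, *Pdzk1* and *Rnase4*, singled out after their values were seen. *Ang* and *Rnase4*, secreted ribonucleases of the angiogenin family, share their start region and part of their exons, so reads may be counted for both. *Rnase4* was at 214, 174 and 191 in WT and 44.7, 65.8 and 45 in Pb-ERG mice (log2 difference -1.91 ± 0.19, adjusted p = 0.0069), and *Ang* at 29.6, 39.99 and 24.8 in WT and 7.47, 4.76 and 5.14 in Pb-ERG mice. *Gsto1*, a glutathione transferase gene, was at 49, 39.4 and 41.8 in WT and 15.4, 16.5 and 18.2 in Pb-ERG mice (log2 difference -1.37 ± 0.14, adjusted p = 0.00768). *Ly75*, an endocytic receptor gene, was at 5.05, 4.65 and 6.46 in WT and 1.2, 1.26 and 1.36 in Pb-ERG mice (log2 difference -2.05 ± 0.17, adjusted p = 0.00486). In *Gsto1* and *Ly75* the 3 Pb-ERG mice were nearly level. *Pdzk1*, a scaffold gene of transporters, was at 15.6, 15.7 and 20.4 in WT and 6.05, 6.09 and 4.89 in Pb-ERG mice, and it overlaps 2 genes listed on the other strand. *G6pc2*, a glucose-6-phosphatase family gene, was at 2.61, 0.905 and 1.72 in WT and 0.0172, 0 and 0 in Pb-ERG mice, with 1, 0 and 0 fragments in the Pb-ERG mice. Over the 216 genes called lower, 67 overlap another gene of the tables, and over the 507 called higher, 160 do; without strand their reads cannot be assigned with certainty.

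*Reg3b*, an antimicrobial gene, had the largest rise of a single gene. Of 15 antimicrobial and acute phase genes tested, 7 were higher and 0 lower (8 higher and 0 lower without mouse 1), with a median difference of 3.45 and medians of 3.54, 3.25 and 2.84 by mouse; the 3 mice were alike in this median. *Reg3b* and *Reg3g*, which encode secreted C-type lectins that bind bacteria, were close to nothing in WT. *Reg3b* was at 0.108, 0.0727 and 0.0564 in WT and 242, 1144 and 2054 in Pb-ERG mice, and its WT values rest on 2, 1 and 1 fragments, against 5649, 26238 and 42653. *Reg3g* was at 0.48, 1.36 and 1.33 in WT and 269.9, 871 and 1413 in Pb-ERG mice (log2 difference 9.30 ± 0.63, adjusted p = 0.00342). Mouse 1 was the lowest Pb-ERG mouse for both and still far above each WT mouse. *Lcn2*, an iron-scavenging lipocalin gene, was at 15.8, 8.69 and 24 in WT and 496, 459 and 364 in Pb-ERG mice (log2 difference 4.86 ± 0.35, adjusted p = 0.00401). *Saa3*, a serum amyloid A gene, was at 0.774, 0.832 and 0.645 in WT and 132, 78.6 and 154 in Pb-ERG mice (log2 difference 6.97 ± 0.29, adjusted p = 0.00064). *Wfdc18*, a secreted WAP-domain gene, was at 0.237, 0.212 and 0.246 in WT and 20.6, 69.2 and 67.9 in Pb-ERG mice (log2 difference 6.77 ± 0.50, adjusted p = 0.00401). *Saa1* and *Lbp*, whose protein binds bacterial lipopolysaccharide, had differences of 4.69 and 2.12. *Pglyrp1*, a peptidoglycan receptor gene outside the list, was noticed after its values were seen, at 7.91, 3.97 and 5.91 in WT and 34.2, 43 and 37 in Pb-ERG mice (adjusted p = 0.00693). *Defb1*, a beta-defensin gene that is high in the gland, was at 1389.5, 992 and 678 in WT and 2299, 1475 and 1321 in Pb-ERG mice and did not pass (adjusted p = 0.224).

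*Reg3b* (chr6:78370885-78373466) and *Reg3g* (chr6:78466269-78468872) lie in the same cluster on mouse chromosome 6 and rose together, so their start regions are shown, with the same meaning of capitals as above.
Reg3b (GRCm38.p6, chr6:78370635-78370934, plus strand): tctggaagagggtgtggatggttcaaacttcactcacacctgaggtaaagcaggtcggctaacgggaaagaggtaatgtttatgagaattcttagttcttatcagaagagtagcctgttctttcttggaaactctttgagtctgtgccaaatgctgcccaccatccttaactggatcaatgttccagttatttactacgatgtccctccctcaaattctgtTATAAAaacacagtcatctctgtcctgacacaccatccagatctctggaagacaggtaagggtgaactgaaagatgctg
Reg3g (GRCm38.p6, chr6:78468825-78469124, minus strand): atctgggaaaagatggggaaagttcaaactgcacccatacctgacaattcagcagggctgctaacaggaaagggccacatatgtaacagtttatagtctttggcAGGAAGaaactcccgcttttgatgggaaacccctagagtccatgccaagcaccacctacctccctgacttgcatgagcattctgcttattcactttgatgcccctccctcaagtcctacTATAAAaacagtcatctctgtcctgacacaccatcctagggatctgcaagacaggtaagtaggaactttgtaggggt
TATAAA stood 29 bases before the *Reg3b* and 27 before the *Reg3g* start. AGGAAG was found in the *Reg3g* window and not in that of *Reg3b*. The 2 windows were identical at 210 of 300 bases in a global alignment, against 155 for *Sbp* and *Sbpl* and 173 for the unrelated pair *Qsox1* and *Tmprss2*. The transcripts of the pair are related too, and some reads may be shared between them.

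Markers of proximal luminal and urethral epithelium, the cells near the gland's outlet, were raised in part. Of 11 tested, 5 were higher and 0 lower, with a median of 1.27 and 1.10, 2.08 and 1.66 by mouse; without mouse 1, 7 were higher. *Wfdc2* was at 10.1, 6.83 and 5.24 in WT and 65.4, 526 and 728 in Pb-ERG mice (log2 difference 5.34 ± 0.85, adjusted p = 0.0255). *Ly6a*, which encodes the surface protein Sca-1, was at 84.1, 80.7 and 80.03 in WT and 299, 1332 and 944 in Pb-ERG mice (log2 difference 3.14 ± 0.50, adjusted p = 0.0259). *Clu*, the clusterin chaperone gene, was at 277, 54.4 and 259 in WT and 907, 1918 and 2969 in Pb-ERG mice (log2 difference 3.46 ± 0.71, adjusted p = 0.046). In these 3 genes Pb-ERG mouse 1 was the lowest of the Pb-ERG group and above each WT mouse. *Ppp1r1b*, a phosphatase inhibitor gene, was at 6.39, 4.29 and 6.87 in WT and 12.4, 27.8 and 42.8 in Pb-ERG mice (log2 difference 2.09 ± 0.44, adjusted p = 0.0476). *Ly6d*, of the *Ly6a* family, was at 4.75, 2.004 and 2.7 in WT and 14.2, 13 and 9.68 in Pb-ERG mice (log2 difference 1.99 ± 0.35, adjusted p = 0.0326). Others of the list were not called. The keratin gene *Krt19* was at 201, 144 and 133 in WT and 115, 152 and 156 in Pb-ERG mice (adjusted p = 0.643). *Psca*, a surface antigen gene, was above the WT range in mouse 1 and not in the others, at 20.03, 7.77 and 20.9 in WT and 94, 11 and 18.1 in Pb-ERG mice. Of 12 basal markers 0 were called, with a median of -0.16 and differences of -0.24 and -0.56 for *Krt5* and *Krt15*, the most abundant. Its 5 positive differences include 2.12 for *Krt17* and 1.69 for *Sfn* (adjusted p = 0.0663 and 0.0591), named after their values were seen, and without mouse 1, 3 of the list were higher and 2 lower. Of 4 markers of urothelium tested 0 were called.

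Several imprinted genes, most of them at 2 clusters, were near nothing or low in WT and higher in Pb-ERG. They were noticed among the largest rises, and the list of 24 imprinted genes was written after the values were seen. Of 23 tested, 8 were higher and 0 lower, with a median of 0.42; without mouse 1 the counts were 9 and 1. The rises were *Dlk1*, *Rtl1*, *Meg3*, *Rian* and *Mirg* of the cluster on chromosome 12, *H19* and *Igf2* on chromosome 7, and *Plagl1* on chromosome 10. *Dlk1* (chr12:109452849-109463336), a Notch-like membrane protein gene expressed from the paternal copy, had 0, 0 and 2 fragments in WT and 5095, 2990 and 8519 in Pb-ERG mice, or 34.7, 20.7 and 65.1 scaled FPKM (adjusted p = 0.00064). *Rtl1*, also paternal, was listed at 0 in the WT mice and was at 0.405, 0.583 and 0.684 in the Pb-ERG mice. These rose in all 3 mice. The maternally expressed noncoding RNA genes of the same cluster were less even: *Meg3* was at 0.0254, 0.0304 and 0.0118 in WT and 0.289, 22.4 and 16.8 in Pb-ERG mice, *Rian* at 0.0407, 0.184 and 0.101 in WT and 2.17, 16.9 and 16.7 in Pb-ERG mice and *Mirg* at 0, 0.0144 and 0 in WT and 0.307, 6.89 and 7.55 in Pb-ERG mice, with mouse 1 far below mice 2 and 3. *Gm26906*, listed on the strand opposite *Meg3* and overlapping it, had 37, 3256 and 1814 fragments in the Pb-ERG mice. *H19* (chr7:142575529-142578143), a noncoding RNA gene that hosts a microRNA, was at 0.0719, 0.29 and 0.824 in WT and 178, 43.9 and 67.2 in Pb-ERG mice (log2 difference 7.97 ± 0.79, adjusted p = 0.0069). *Igf2*, the growth factor gene beside it, was at 0.932, 2.37 and 3.16 in WT and 97.8, 31.9 and 38.1 in Pb-ERG mice (log2 difference 4.67 ± 0.55, adjusted p = 0.0121). For this pair mouse 1 was the highest. *Mir675* and *Gm27786* overlap *H19* and may share its reads. *Dio3*, of the cluster on chromosome 12, was at 0.304, 0.598 and 0.422 in WT and 0.257, 1.78 and 0.522 in Pb-ERG mice and did not pass (adjusted p = 0.646). *Cdkn1c*, *Peg3*, *Grb10* and *Mest* had differences of 0.42, -0.66, -0.77 and 0.10, none past the threshold.

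**Figure D3:**
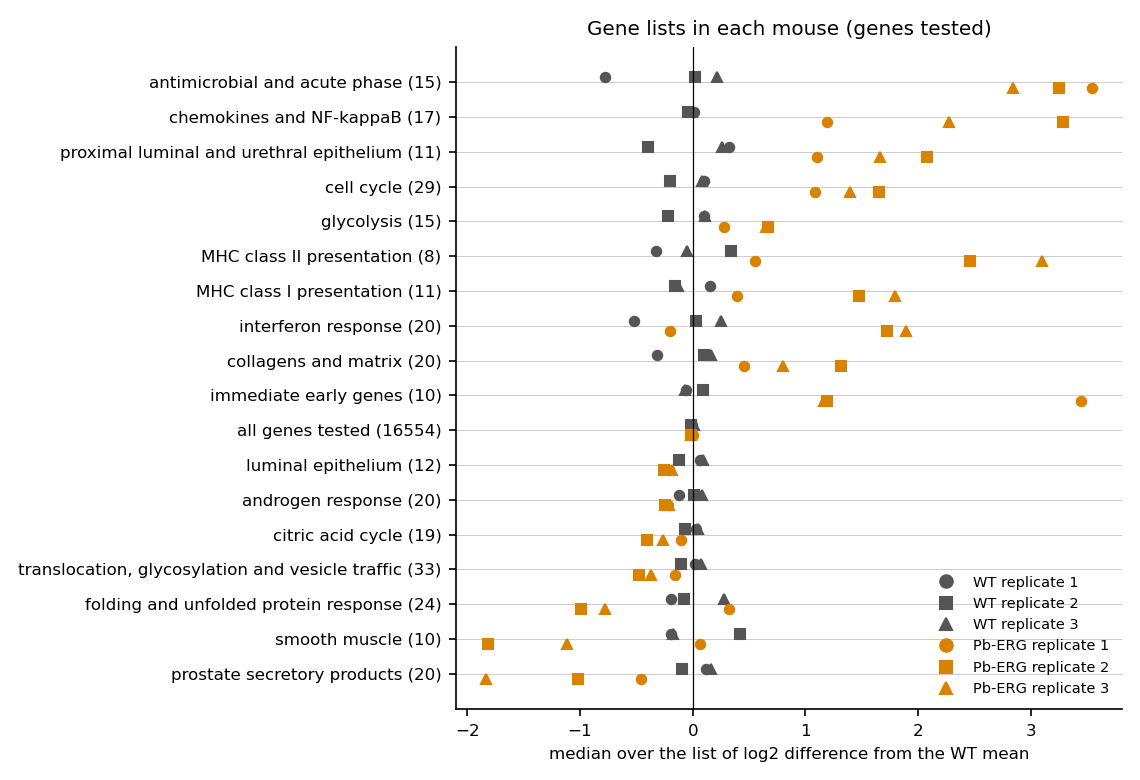
Each row is a gene list with the number of genes tested, and each symbol is the median, over its genes, of a mouse's log2 difference from the WT mean. The antimicrobial list is at 3.54, 3.25 and 2.84 in Pb-ERG mice 1, 2 and 3, while the interferon list is at -0.20, 1.72 and 1.90 and the folding list at 0.32, -0.99 and -0.78, with mouse 1 near or past WT.

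Cell cycle genes were at a low level in WT, and those called were higher in Pb-ERG. Of 29 tested, 12 were higher, 0 lower and 29 had a positive difference, with a median of 1.27; without mouse 1, 16 were higher. By mouse the median was 1.08, 1.65 and 1.40, against 0.10, -0.21 and 0.09 in the WT mice. *Mki67*, the gene of the Ki-67 antigen, was at 0.461, 0.214 and 0.391 in WT and 1.79, 3.25 and 1.52 in Pb-ERG mice (log2 difference 2.58 ± 0.38, adjusted p = 0.0221). *Cdc20*, an activator of mitotic exit, was at 0.596, 0.339 and 0.31 in WT and 1.71, 3.32 and 2.65 in Pb-ERG mice (log2 difference 2.47 ± 0.38, adjusted p = 0.0237), and *Cdk1*, the mitotic kinase gene, at 0.884, 0.76 and 0.762 in WT and 2.12, 3.59 and 2.16 in Pb-ERG mice (log2 difference 1.63 ± 0.28, adjusted p = 0.0294). The mitotic kinase and spindle genes *Plk1* and *Tpx2* had differences of 2.35 and 2.40. The replication helicase gene *Mcm2* was at 4.33, 2.03 and 3.25 in WT and 3.77, 5.54 and 3.97 in Pb-ERG mice and did not pass (adjusted p = 0.331). *Ezh2*, a histone methyltransferase gene tied to ERG in human tumours, was at 2.04, 1.72 and 2.49 in WT and 4.71, 11.2 and 9.13 in Pb-ERG mice (log2 difference 1.91 ± 0.34, adjusted p = 0.0325). Of the 17 genes tested in that list, 2 were higher and 1, *Tff3*, lower, with a median of 0.39; without mouse 1, 8 were higher and 2 lower. *Plaur*, the urokinase receptor gene and the other rise, was at 0.795, 0.237 and 0.797 in WT and 7.07, 4.93 and 14.2 in Pb-ERG mice (log2 difference 3.70 ± 0.55, adjusted p = 0.0218). The p53 target *Cdkn1a*, a cell cycle inhibitor gene, was at 7.64, 4.02 and 4.54 in WT and 12.3, 18.3 and 24.1 in Pb-ERG mice and was called higher too (log2 difference 1.75 ± 0.32, adjusted p = 0.0366), the 1 call among 18 p53 targets (5 higher and 0 lower without mouse 1).

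Several abundant rises were close in the 3 Pb-ERG mice. *Qsox1*, a sulfhydryl oxidase gene of the secretory pathway, was at 20.5, 24.3 and 29.5 in WT and 527, 336 and 441 in Pb-ERG mice (log2 difference 4.12 ± 0.22, adjusted p = 0.00154). *Tcn2*, the vitamin B12 carrier gene, was at 76.1, 72 and 92.7 in WT and 465, 483 and 698 in Pb-ERG mice (log2 difference 2.76 ± 0.21, adjusted p = 0.00448). *Nucb2*, which encodes a calcium-binding protein, was at 78.9, 109 and 156 in WT and 632, 526 and 490.2 in Pb-ERG mice (log2 difference 2.31 ± 0.27, adjusted p = 0.0114). These 3 genes, and *Ifitm3*, *Ly6c1* and *Bgn* below, were chosen after their values were seen, from the called rises with the highest Pb-ERG means. The separation of their groups follows from how they were chosen. *Ifitm3*, an antiviral membrane protein gene, was at 85.3, 108 and 89.7 in WT and 289.8, 659 and 718 in Pb-ERG mice and *Ly6c1*, a relative of *Ly6a*, at 17.8, 31.7 and 26.7 in WT and 132, 722 and 466 in Pb-ERG mice, both with mouse 1 lowest. *Bgn*, a matrix proteoglycan gene, was at 49.1, 59.4 and 63.6 in WT and 249, 176 and 171 in Pb-ERG mice (log2 difference 1.78 ± 0.19, adjusted p = 0.00981). Among the largest rises, *Lman1l*, a lectin gene related to cargo receptors, was at 0.293, 0.524 and 0.991 in WT and 44.8, 245 and 227 in Pb-ERG mice, *Serpinb11*, a serpin gene, at 0.947, 0.424 and 0.739 in WT and 39.3, 185 and 151 in Pb-ERG mice, and *Dmbt1*, a mucosal scavenger gene, at 0.0132, 0 and 0.0206 in WT and 0.783, 13.1 and 8.79 in Pb-ERG mice. *Otos*, known from the inner ear, had 0, 0 and 3 fragments in WT and 414, 1899 and 1466 in Pb-ERG mice. *Gm11212* was at 0.0665, 0 and 0.0693 in WT and 283, 18.8 and 6.15 in Pb-ERG mice, highest in mouse 1. *Timp1*, a metalloproteinase inhibitor gene, was at 5.14, 4.41 and 6.46 in WT and 18, 26 and 22.6 in Pb-ERG mice (log2 difference 2.04 ± 0.22, adjusted p = 0.00982).

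Immune genes differed among the Pb-ERG mice. Of 17 chemokine and NF-kappaB genes, 4 were higher and 0 lower, with medians of 1.19, 3.29 and 2.27 by mouse; without mouse 1, 16 were higher. *Relb*, an NF-kappaB subunit gene, was at 1.97, 1.27 and 1.82 in WT and 4.63, 6.85 and 4.78 in Pb-ERG mice (log2 difference 1.66 ± 0.26, adjusted p = 0.0251). *Ccl2*, a monocyte chemokine gene, was at 0.506, 0.883 and 0.632 in WT and 1.88, 4.19 and 4.36 in Pb-ERG mice (log2 difference 2.12 ± 0.42, adjusted p = 0.0445). *Ccl28*, a chemokine gene of mucosal epithelium, had a difference of 2.62, and *Ccl20* was listed at 0 in WT and was at 1.21, 2.93 and 0.463 in Pb-ERG mice. Macrophage markers summed to 85.3, 201 and 106 in WT and 151, 194 and 465 in Pb-ERG mice, with 1 of 10 called, *Cd14*, at 3.03, 4.43 and 4.71 in WT and 12.8, 24.1 and 24.8 in Pb-ERG mice. T and NK cell markers summed to 3.93, 8.14 and 4.8 and 9.88, 46.9 and 24.6, with 1 of 10 called, *Cd8b1*. Without mouse 1, 9 of the 10 T and NK markers were higher and 0 lower. Macrophage markers then had 2 higher and 0 lower of 10. Each of these markers had a fragment in each group. In the T and NK sum all 3 Pb-ERG mice were above each WT mouse, with mouse 1 nearest. The part of these cells in the rise of immune genes was not tested. For interferon response genes, 0 of 20 were called and the medians by mouse were -0.20, 1.72 and 1.90; without mouse 1, 15 of the 20 were higher. *Bst2* and *Ifi27l2a*, its most abundant members, had differences of 1.19 and 0.61. For MHC class II genes, 0 of 8 were called with medians of 0.56, 2.46 and 3.10, and 7 of 8 were higher without mouse 1. *Cd74*, the invariant chain gene, was at 48.7, 78.3 and 61.1 in WT and 96, 312 and 487 in Pb-ERG mice. Immunoglobulin genes were split. *Ighg1* was at 0.633, 0.737 and 0.791 in WT and 6.29, 10.8 and 8.55 in Pb-ERG mice (log2 difference 3.37 ± 0.30, adjusted p = 0.00506), while *Ighm* was at 45.7, 14 and 4.87 in WT and 39.7, 445 and 431 in Pb-ERG mice and did not pass (adjusted p = 0.103).

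Other lists, also chosen with earlier results of these data known, held few or no calls. Collagen and matrix genes had 0 of 20 called and medians of 0.45, 1.32 and 0.81 by mouse, with 12 higher without mouse 1, and fibroblast markers had 0 of 10 called and 6 higher without it. The MHC class I list had 0 of 11 called and 9 higher without mouse 1. Of 19 Wnt pathway genes tested, *Nkd1*, a feedback inhibitor gene, was lower at 15.9, 14.1 and 18.4 in WT and 6.24, 1.78 and 1.34 in Pb-ERG mice (log2 difference -2.69 ± 0.53, adjusted p = 0.0429), and *Dkk2*, a secreted Wnt antagonist gene, was higher at 0.824, 0.927 and 0.661 in WT and 1.68, 4.61 and 2.79 in Pb-ERG mice (log2 difference 1.77 ± 0.38, adjusted p = 0.04997). The Notch target *Nrarp*, the prolyl hydroxylase gene *Egln3*, the complement gene *Hc* and the immediate early gene *Jun* were the calls of their lists. Their differences were 1.43, 2.01, 2.76 and 1.94. Without mouse 1 the complement list had 8 higher and 1 lower of 14 and the Wnt list 2 higher and 4 lower of 19. The Notch list then had 2 higher and 1 lower of 12 and the hypoxia list of *Egln3* 3 higher of 9. Of the 10 immediate early genes 7 were then higher and 0 lower. With all mice, all 10 had a positive difference, with medians of 3.45, 1.19 and 1.17 by mouse. No gene was called in the lists for neuroendocrine cells, endothelium, neutrophils, B and plasma cells, skeletal muscle, adipocytes, Schwann cells, red blood cells, zinc and citrate handling, fatty acid synthesis or oxidation, antioxidant and glutathione genes, pyrimidine synthesis, cell junctions and mucins, mitochondrially encoded genes or a sample of ribosomal protein genes. Their medians ran from -0.58 in skeletal muscle markers to 2.20 in B and plasma cell markers. Without mouse 1, antioxidant and glutathione genes had 3 higher and 6 lower of 21. Fatty acid oxidation genes had 0 higher and 5 lower of 14 and synthesis genes 4 and 2 of 15. Zinc and citrate genes had 1 and 3 of 12 and pyrimidine synthesis genes 2 and 1 of 16. B and plasma cell markers had 3 higher and 1 lower of 5. Neutrophil markers had 2 and 0 of 4 and skeletal muscle markers 0 and 3 of 6. Neuroendocrine markers had 1 and 1 of 6 and endothelial markers 1 and 1 of 10. Schwann cell markers had 0 and 1 of 6 and red blood cell markers 0 and 1 of 5. Cell junction and mucin genes had 5 higher and 2 lower of 19 and ribosomal protein genes 1 higher and 0 lower of 26. Among them, the zinc-binding metallothionein gene *Mt1* was at 1078, 1465 and 1485 in WT and 1149, 234 and 417 in Pb-ERG mice and *Mt2* at 902, 1087 and 1142 in WT and 833, 170.5 and 265 in Pb-ERG mice, with mouse 1 inside the WT range for *Mt1*. The mitochondrial gene *mt-Co1* was at 3106, 7005 and 4131 in WT and 3149.8, 6999 and 3834 in Pb-ERG mice, and the elongation factor gene *Eef1a1* at 5667, 8024 and 5348 in WT and 4525, 3972 and 4990.5 in Pb-ERG mice, both above 1% of a library. The groups overlapped for *mt-Co1* and not for *Eef1a1*, which did not pass (adjusted p = 0.644).

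Mouse 1 was the nearest to WT in most of the called genes, and mice 2 and 3 had no fixed order. Over the 507 genes called higher, the median distance from the WT mean was 1.53, 2.05 and 2.11 for mice 1, 2 and 3, and mouse 1 was nearest WT in 357. Over the 216 called lower it was -1.06, -1.41 and -1.38, with mouse 1 nearest WT in 152. All 3 mice were past the WT range for each of these genes, which the call itself favours. Among all genes tested, 123 were more than 4-fold above the highest WT mouse in every Pb-ERG mouse, and 21 more than 4-fold below the lowest. Another 58 met this rise in mice 2 and 3 with mouse 1 at or below the highest WT mouse, and 51 met the fall in mice 2 and 3 with mouse 1 at or above the lowest WT mouse. In a single mouse, 33, 11 and 4 genes met the fall in mouse 1, 2 or 3 with the other two at or above the lowest WT mouse. Pairs with mouse 1 were rare: 1 and 0 rises and 1 and 2 falls were shared by mice 1 and 2 and by mice 1 and 3.

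The uneven falls include some of the most abundant transcripts of the gland; they were chosen after their values were seen. *Tgm4*, the prostate transglutaminase gene, was at 27198, 21716 and 24491 in WT and 20125, 3059.6 and 3547 in Pb-ERG mice, and *9530053A07Rik* at 15705, 11840 and 16138 in WT and 14503, 1593 and 1692 in Pb-ERG mice. *Glb1l3*, a galactosidase-like gene, was at 888, 909 and 921 in WT and 989, 116 and 51.2 in Pb-ERG mice, and *Prdx6*, a peroxiredoxin gene, at 2923, 4797 and 3257 in WT and 3105, 626 and 461 in Pb-ERG mice. The ETS family gene *Elf5* was at 53.9, 29.4 and 38.1 in WT and 35.8, 2.001 and 0.59 in Pb-ERG mice. In each of these 5, mice 2 and 3 were far below WT while mouse 1 stood inside the WT range or, for *Glb1l3* above it and for *Tgm4* just under it, and none was called (adjusted p = 0.415, 0.534, 0.193, 0.184 and 0.165). The seminal vesicle genes were uneven in both groups: *Svs2* was at 8936, 194 and 13790.1 in WT and 14340.5, 2.37 and 2.69 in Pb-ERG mice and *Svs5* at 5041, 269.8 and 9849 in WT and 19339.9, 29.1 and 14.7 in Pb-ERG mice, each low in WT mouse 2. A further 16 genes were more than 4-fold above WT in mouse 1 with mice 2 and 3 at or below the highest WT mouse. The rises in mouse 1 include *Svs4*, at 221, 30.4 and 141 in WT and 12195, 84.2 and 46.4 in Pb-ERG mice, *Akr1b7*, an aldo-keto reductase gene, at 4.08, 0.69 and 6.02 in WT and 685, 0.258 and 0.257 in Pb-ERG mice, and *Ptgs2*, an inducible cyclooxygenase gene, at 0.24, 0.657 and 0.519 in WT and 29.7, 0.542 and 0.64 in Pb-ERG mice. The uneven rises include *Neat1*, a nuclear noncoding RNA gene, at 6.16, 5.44 and 2.68 in WT and 2.75, 111 and 41.1 in Pb-ERG mice, *Nxpe4* at 0.518, 0.47 and 0.472 in WT and 0.38, 49 and 27.3 in Pb-ERG mice and the water channel gene *Aqp5* at 6.61, 1.69 and 4.7 in WT and 6.17, 33.9 and 68.2 in Pb-ERG mice. Smooth muscle markers, among them *Acta2* at 494, 658 and 537 in WT and 617, 172 and 266 in Pb-ERG mice, followed the same split, with medians of 0.06, -1.82 and -1.11 by mouse, 0 of 10 called with mouse 1 and 9 of 10 lower without it. Their summed level was 1626, 2487 and 1711 in WT and 2045, 532 and 874 in Pb-ERG mice, and its part in other results was not tested.

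**Figure D4:**
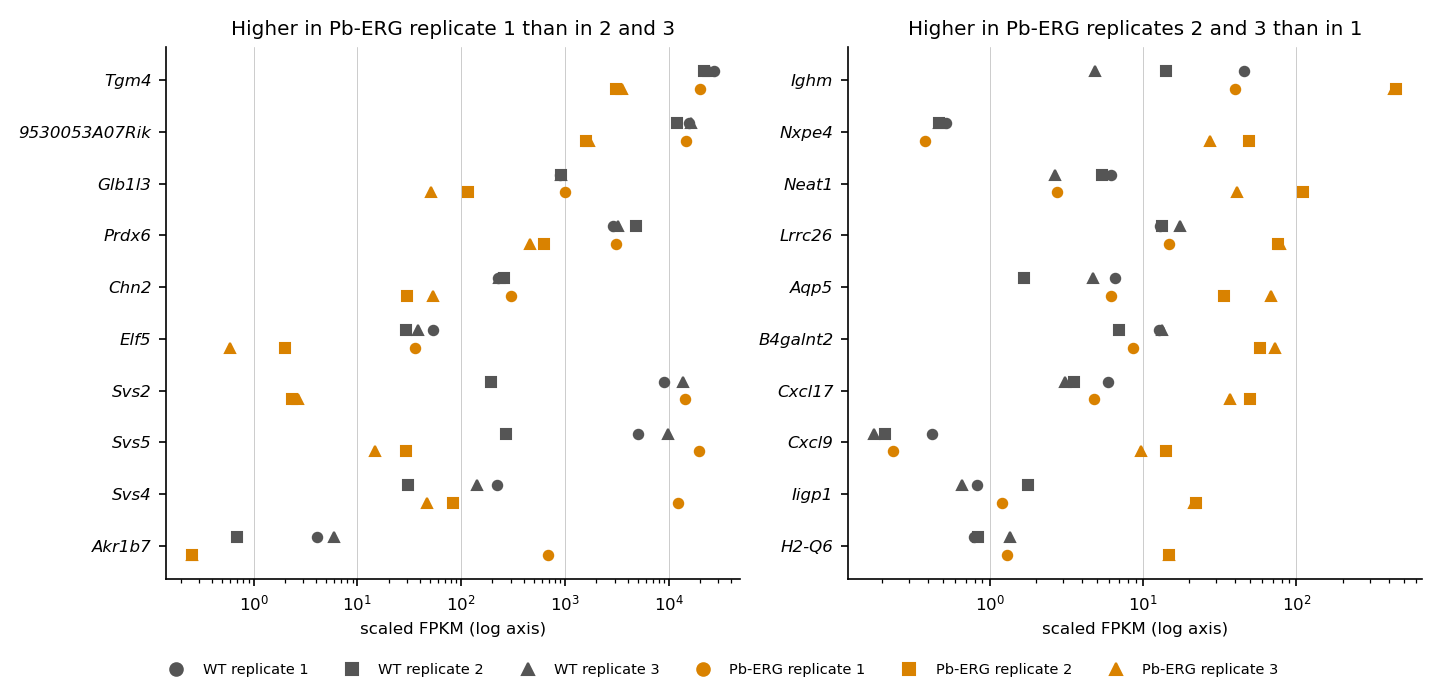
Scaled FPKM on a log x axis in each of the 6 mice for genes that differed among the Pb-ERG mice, chosen after their values were seen; symbols mark the mouse number and colours the group. On the left Pb-ERG mouse 1 lies near or above WT while mice 2 and 3 lie below or within the WT range; on the right mice 2 and 3 lie above every WT mouse and mouse 1 does not.

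The called genes were then looked up in mice in which *Trp53* is deleted in the prostate, where "Pb-ERG, Trp53pc-/-" libraries were set against Trp53pc-/- libraries, with 3 mice each and no library shared with the comparison above. Of 484 genes called higher that were also tested there, 474 had a higher mean with the transgene (97.9%, against 47.6% of all genes tested in both). Of the 484, 169 passed the threshold there in the same direction (34.9%, against 3.17% of all). Of 211 genes called lower, 202 had a lower mean (95.7%, against 52.4%) and 21 passed (9.95%, against 0.664%). Genes called in the opposite direction numbered 0 and 0. The median difference there was 1.84 for the rises and -1.16 for the falls. A fit of all 12 libraries tested whether the transgene's effect differed with and without *Trp53*: 0 of 17623 genes passed in limma, with 1505 at an unadjusted p under 0.05, and no other tool was run for it.

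Single genes show the range of that look-up. *Reg3b* was at 0, 0.446 and 0.0746 in Trp53pc-/- and 524, 169.8 and 299 in "Pb-ERG, Trp53pc-/-" mice, and *Qsox1* at 15.2, 20.8 and 27.5 and 219, 346 and 223. *Gpt2* was at 198, 108 and 49.8 and 20.9, 25.4 and 27.3, and *Phyh* at 355, 244 and 184 and 101, 102 and 39.8. These 4 genes kept groups that did not overlap. *Reg3b* and *Qsox1* passed there (adjusted p = 0.0119 for both), and *Gpt2* and *Phyh* did not (adjusted p = 0.0637 and 0.0705). *Sbpl* was at 119, 2838 and 20720.3 and 0.252, 210.1 and 4.14, with overlap. *Tff3* and *Rnase4* had differences of 0.99 and 0.15 there, opposite in sign to those of -4.47 and -1.91 without the deletion, and neither passed there (adjusted p = 0.799 and 0.9). The test of the difference itself gave adjusted p = 0.583 and 0.529. Of the 7 falls that passed whichever mouse was left out, *Rnase4* among them, none passed there. The others kept a negative difference there. It was -2.45 for *Adhfe1*, -0.82 for *Ang*, -4.11 for *G6pc2*, -0.53 for *Gsto1*, -0.90 for *Ly75* and -1.49 for *Pdzk1* (limma, adjusted p = 0.0766 to 0.391). *H19* and *Igf2* were at 20.7, 42.7 and 1254 and 10.04, 22.4 and 973 in the "Pb-ERG, Trp53pc-/-" mice, of which mouse 3 was far above the others. *Dlk1* was at 0.0193, 0.0354 and 0.0118 in Trp53pc-/- and 12.8, 17.6 and 0.249 in "Pb-ERG, Trp53pc-/-" mice (limma, adjusted p = 0.0652). *Meg3* was at 0.0159, 0.0194 and 0.00779 and 0.234, 0.204 and 0.404 (limma, adjusted p = 0.0209). *Dlk1* did not pass there and *Meg3* did, at levels far below those of Pb-ERG mice 2 and 3.

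**Figure D5:**
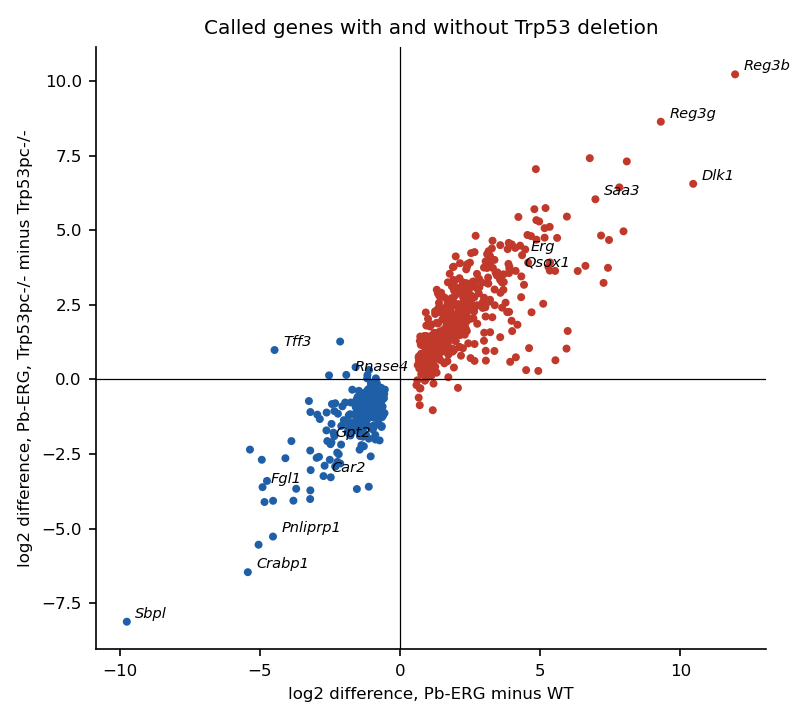
Each point is a gene called in Pb-ERG against WT and tested in both comparisons, with its log2 difference, Pb-ERG minus WT, on the x axis and its log2 difference, "Pb-ERG, Trp53pc-/-" minus Trp53pc-/-, on the y axis; red marks genes called higher and blue those called lower on the x axis. 474 of 484 red and 202 of 211 blue points keep their direction; *Tff3* and *Rnase4* are among those that do not.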

How the data were processed

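Prostate RNA of 12 mice in 4 groups was measured by paired-end RNA-seq, and 6 libraries were compared here. According to the methods, the authors used the TruSeq RNA Sample Prep Kit (v2, which does not mark strand), aligned reads to GRCm38/mm10 with STAR, counted and normalized genes with RSeQC and tested them with DESeq2; the submitters' processing notes give STAR 2.5.2b. The deposited values are FPKM, fragments normalized by the authors for exon length and library total. FPKM times exon length gave whole fragments for every value (within 0.01), so totals are known: 20591189 to 32565774, of which 92.4% to 97.0% lay on listed genes.

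Fragments were scaled by median of ratios. Genes with at least 10 fragments in a median-size library in 3 of the 6 libraries were tested on log2(scaled fragment CPM + 0.1) with limma 3.58.1 (mean-variance trend, Benjamini-Hochberg adjustment, threshold 0.05) in R 4.3.3; the pseudocount understates low genes. The limma step was tested on simulated data. Mice are taken as separate animals from the labels' replicate numbers and the methods' triplicates. Genes named are the 15 largest called rises and falls without overlap and with a mean of at least 5 scaled CPM, genes above 1% of a library, *Erg*, *Trp53* and up to 4 members of each list. Others were chosen after their values were seen. The members and lists were chosen with earlier results of these data known. Promoter windows are from RefSeq (GRCm38.p6), with Biopython 1.88 for alignment; other steps used Python 3.11.15, SciPy 1.17.1 and matplotlib 3.10.9. Results for some genes are not reported here. Alternatives were other scalings, filters, pseudocounts, thresholds, fits and each mouse left out.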

Additional observations from a re-analysis of the deposited data

How the results depend on the processing

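Against 507 and 216 genes called higher and lower, limma gave 846 and 120 with FPKM as deposited, 283 and 63 on log2(FPKM + 1), 194 and 102 with voom, 373 and 98 with all 12 libraries, 358 and 143 with no filter beyond a single fragment and 2 and 0 at an adjusted p under 0.001. Leaving out each mouse gave 47 to 2379 higher and 9 to 1893 lower. The cause of these changes was not tested, apart from the stricter threshold. Trimmed mean of M-values scaling, robust variances, a pseudocount of 1, a minimum in each library, a log2 difference of at least 1 and totals without the genes above 1% kept both counts within 1.5 times. Each called gene tested under these alternatives kept its direction, except 1 of the 507 with all 12 libraries. With a mouse left out this follows from groups that do not overlap. The share of called rises that were also higher in the mice with *Trp53* deleted (97.9%) was 94.3% with FPKM as deposited, 99.4% with all 12 libraries, 99.4% with the replicate block, 100% at the stricter threshold, 99.3% with a log2 difference of at least 1, and 89.3% to 100% with a mouse left out. For falls (95.7%) it was 98.9% with all 12 libraries and 87.8% to 95.7% with a mouse left out. The fit of all 12 libraries includes those of the look-up, so its shares do not come from separate mice. The difference of *Svs4* (1.88, not called) turned to -0.65 without Pb-ERG mouse 1 and reached 3.37 without another mouse. That of *mt-Co1* (-0.03, not called) turned to 0.30 with FPKM as deposited and on log2(FPKM + 1), 0.0486 with totals without the genes above 1%, and 0.29, 0.21 and 0.07 without WT mouse 2, Pb-ERG mouse 1 and Pb-ERG mouse 3, and was lowest at -0.36 without Pb-ERG mouse 2. With FPKM as deposited, the list medians of luminal epithelium, androgen response and citric acid cycle were 0.089, 0.094 and 0.127, against negative values here.

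With the replicate number as a block, 159 and 73 genes were called. Deviations of same-numbered WT and Pb-ERG mice correlated at -0.00139, 0.15 and -0.236 for numbers 1, 2 and 3. Those of differently numbered mice ran from -0.211 to 0.247. With so few mice these values cannot decide whether the numbers pair the mice. With 3 mice a group and mouse 1 apart, a gene that missed the threshold may still have changed, and fragment depth limited the genes near zero in WT, such as *Dlk1* and *Reg3b*.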
